A study of Mus musculus with 28 samples.

Results

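Solute carriers for amino acids, zinc, iron, choline and a range of sodium-coupled solutes were followed through their histone acetylation in mouse lung adenocarcinoma cells. The set held the 105 protein-coding genes, of 21887 in the RefSeq annotation of mm10, whose symbols start with Slc1a, Slc5a, Slc6a, Slc7a, Slc11a, Slc30a, Slc36a, Slc38a, Slc39a, Slc43a or Slc44a, with Slc7a11 left out. Membership was decided by symbol. By substrate family, 61 of the genes belong to amino acid families (Slc1a, Slc6a, Slc7a, Slc36a, Slc38a and Slc43a), 24 to the zinc families Slc30a and Slc39a, 2 to the iron family Slc11a, 5 to the choline family Slc44a and 13 to Slc5a. Slc7a6os is matched by its symbol but is the neighbour of Slc7a6 and not a carrier.

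Amino acid carriers of the Slc7a family often work as a light chain bound to the heavy chain encoded by Slc3a2, and carriers of Slc1a and Slc38a move glutamine and other neutral amino acids into or between cell compartments. Slc39a proteins bring zinc into the cytosol, Slc30a proteins take it out or into vesicles, and Slc11a proteins carry iron and other divalent metals. Acetylation of histone H3 on lysine 27 (H3K27ac) marks active promoters and enhancers, and acetylation on lysine 9 (H3K9ac) lies mainly at active promoters.

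Both marks were measured by chromatin immunoprecipitation and sequencing in 4 groups of cultured cells, with 3 biological replicates per group and mark according to the labels. Sen is the line labelled Sensitive (to PD-1, wild-type), and Res is the line labelled Resistant (wild-type). Res_Ctrl and Res_shFabp7 carry the cell line label Resistant as well; the genotype of the first is given as control and that of the second as a knockdown of Fabp7, a fatty acid binding protein, by an shRNA. How the resistant line was derived, what the control cells carry, and whether each line is a single clone were not stated by the labels.

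Each of the 24 deposited lists gave between 11771 and 28934 peaks, with 2.24 M to 11.5 M tags in them. No pair of lists of one group was identical (0 of 24 pairs). Sen replicate 1 of H3K27ac was the shallowest for its mark, at 15856 peaks and 2.24 M tags in peaks. Of 9 epithelial and lung markers, 6 to 7 had a peak in each library, with Cdh1, Krt8, Krt18, Krt7, Krt19 and Sftpc in all 12 of each mark and the lung factor Nkx2-1 in none. The 4 endothelial markers had none, and of 6 immune markers Cd14 and Cd68 alone had one. Of 6 fibroblast markers, 0 to 3 had a peak per library in H3K27ac and 0 to 1 in H3K9ac. Fabp7 had no peak within 1 kb of its ends in any library (0 of 12 for each mark), so its acetylation gives no check of the knockdown, and RNA was not measured in these files.

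Most of the set had no peak at either gene end. Overlapping peaks of the 12 lists of a mark were merged into regions, and a gene was given the regions within 1 kb of its annotated ends. For H3K27ac, 34 of the 105 genes had a peak in all 12 libraries, 10 in some and 61 in none. For H3K9ac the counts were 35, 8 and 62. A region in at least 1 library of both marks was found for 42 genes, and 60 genes had none in either. Members with a peak per library numbered 36, 42 and 42 in Sen, 44, 41 and 43 in Res, 41, 41 and 42 in Res_Ctrl and 42 in each Res_shFabp7 library for H3K27ac. The Sen library with 36 is the shallow one. H3K9ac gave 40, 40 and 41 in Sen, 38, 37 and 38 in Res, 37, 38 and 40 in Res_Ctrl and 40, 41 and 39 in Res_shFabp7.

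The families differed in how many of their genes were marked. Both Slc11a genes had both marks in all 12 libraries. Of 14 Slc39a genes, 7 had each mark in all 12 libraries and 5 had neither mark at their ends in any. Of 10 Slc30a genes, 5 had H3K27ac and 6 had H3K9ac in every library. The Slc6a genes were mostly without a peak at their ends, with no H3K27ac region there for 15 of 21. Its carriers of taurine (Slc6a6) and glycine (Slc6a9) had H3K27ac in all 12 libraries and that of creatine (Slc6a8) in 11. The sodium-coupled Slc5a genes were also mostly without a peak at their ends, with no H3K27ac region there for 10 of 13. Of 7 Slc1a genes, only Slc1a4 and Slc1a5 had a region at their ends, and the glutamate carriers Slc1a1, Slc1a2 and Slc1a3 had none there. Over the gene, Slc1a2 had 5 H3K27ac regions, in up to 12 libraries, and 3 H3K9ac regions, in up to 9. Slc38a1, a glutamine carrier of the cell surface, had no region at its ends in either mark. The gene ends can miss regions inside a gene. Of the 61 genes without an H3K27ac region at their ends, 10 had one over the gene, and of the 62 for H3K9ac 6 did. An internal start can be missed too. Of the 61 genes, 46 have a start listed by RefSeq, and for 4 of these a region lay within 1 kb of such a start. They were the zinc carriers Slc39a8 and Slc39a10, in all 12 libraries of both marks, Slc38a9, in 8 libraries for H3K27ac and 11 for H3K9ac, and Slc7a7, in 6 for each. These 4 genes were named after their values were seen.

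Between genes, levels can be compared only per length of region. The unit, called scaled tags below, is tags in the gene's peaks per 1 M of the library's tags. That total counts only regions with a peak in all 12 libraries, and it is scaled by TMM (trimmed mean of M-values). Averaged over the 12 libraries of H3K27ac, the highest densities were 28.8 scaled tags per kb of merged region at Slc39a1, a zinc importer of the cell surface, and 26.1 at both Slc39a7, which releases zinc from the endoplasmic reticulum, and Slc38a2, which imports small neutral amino acids. For H3K9ac the order began with Slc7a6 (50.3), Slc39a7 (48.1) and Slc7a6os (44.8). Some regions do not lie at a listed start. Among the 41 members with a tested H3K27ac region, the one used lay within 1 kb of a listed start for 26 and elsewhere for 6. It could not be placed for 9 with no start listed. Slc11a1, Slc6a19, Slc7a6, Slc7a6os, Slc39a3 and Slc5a5 are the 6.

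Presence in only part of the libraries was seen for 14 genes in 1 mark or the other. Slc7a2, a carrier of arginine and lysine, was the only member with a peak in all 3 Res libraries and no Sen library, in both marks. Its H3K27ac level was 20.6, 20.1 and 26.9 scaled tags in the Res libraries, with 15.1 in the third Res_Ctrl library and no peak in the other 8. For H3K9ac it was 27.7, 24.6 and 29.8 in Res and 17.9 in the third Res_Ctrl library, with no peak in the others. Over all genes with a peak in these libraries, 2.21% gained one in this way for H3K27ac and 1.38% for H3K9ac. These are low peaks: with peaks kept only at a caller p of at most 1e-10, or with the same number of peaks taken per library, Slc7a2 no longer met the rule in either mark. Losses from Sen to Res were 0 for H3K27ac (0.890% of all genes) and 2 for H3K9ac (2.71%). The 2 were Slc39a3 and the neutral amino acid carrier Slc6a19. At the stricter caller p the H3K9ac losses were Slc39a4 and Slc6a19. With the same number of peaks per library they were 0, and Slc44a2 was lost in H3K27ac. Depth differed: Sen replicates 2 and 3 of H3K9ac had 10.2 M and 11.5 M tags in peaks, and the Res libraries 3.02 M to 3.89 M.

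**Figure D1:**
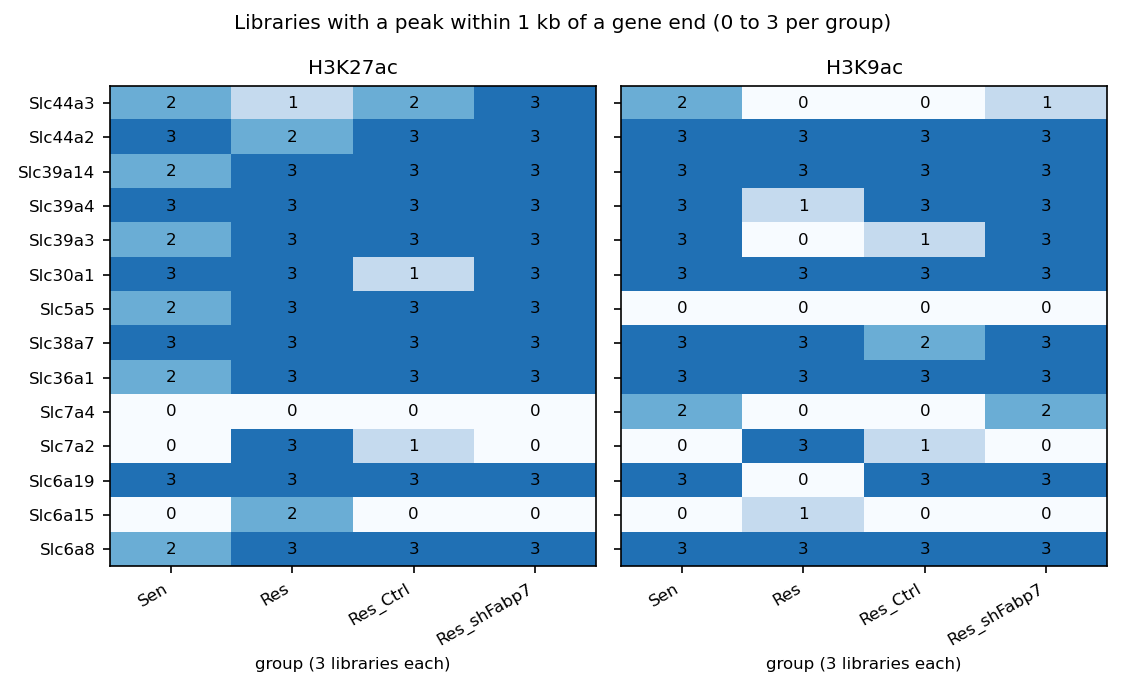
Number of libraries (0 to 3, by shade and printed digit) with a peak within 1 kb of a gene end, for each group on the horizontal axis and each of the 14 members found in some but not all 12 libraries of a mark on the vertical axis. The row of Slc7a2 is filled in Res only, apart from 1 Res_Ctrl library, while 5 genes lack just 1 Sen library in H3K27ac.

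Slc6a19, absent from Res in H3K9ac, was present in the other 3 groups. Its H3K9ac level was 29.2, 27.6 and 33.8 scaled tags in Sen, 42, 33.4 and 27.4 in Res_Ctrl and 19.7, 26.8 and 22.4 in Res_shFabp7; the Res libraries had no peak. It was the 1 member gained from Res to Res_Ctrl in H3K9ac, where 0.713% of all genes were gained and 1.01% lost, with 0 members lost. At a caller p of at most 1e-10, or with the same number of peaks per library, Slc6a19 no longer met this rule. In H3K27ac that comparison had 0 members gained (1.10% of all genes) and 0 lost (1.49%). Slc39a3, a zinc importer that shares regions with Diras1, had H3K9ac peaks in all 3 Sen and all 3 Res_shFabp7 libraries. It had them in 1 Res_Ctrl library and in no Res library. These presences count 2 regions. In the region used for its levels, the Sen libraries had 17.3 scaled tags, no peak and 17.5 scaled tags. Slc44a3 had H3K9ac in 2 Sen libraries and 1 Res_shFabp7 library, and Slc7a4 in 2 of each of these groups and in no other library. These groups were also the deeper ones for H3K9ac. Tags in peaks were 4.84 M, 7.19 M and 5.86 M in Res_shFabp7. In Res_Ctrl they were 2.57 M, 3.19 M and 4.63 M. Whether depth sets these presences was not tested. From Sen to Res_Ctrl 0 members were gained or lost, where 0.883% and 0.328% of all genes were for H3K27ac and 0.320% and 1.17% for H3K9ac. Between Res_shFabp7 and Res_Ctrl no member was gained or lost by this rule in either mark, where 1.50% and 0.0711% of all genes were for H3K27ac and 1.06% and 0.0182% for H3K9ac. In H3K27ac, Slc5a5, Slc39a3, Slc36a1, Slc39a14 and Slc6a8 lacked a peak in a single library, the shallow Sen one.

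The first comparison asks how the carriers' acetylation differed between resistant and sensitive cells. A region was tested where all 6 libraries had a peak in it, with edgeR's quasi-likelihood test on tag counts and Benjamini-Hochberg adjustment over all regions tested, at a threshold of 0.05. Differences below are log2 ratios ± standard error with 3 libraries against 3. In H3K27ac, 8 of 35 tested members were higher in Res (22.9%, against 14.6% of all genes tested) and 4 were lower (11.4% against 11.0%). In H3K9ac, 18 of 36 were higher (50% against 27.7%) and 3 were lower (8.33% against 25.3%). The median difference of the members was 0.21 for H3K27ac and 0.18 for H3K9ac, where that of all genes tested was -0.03 and -0.02. Members enter these counts only with a peak in all 6 libraries, so they are not the whole set, and the counts were not tested as a set.

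Higher values in both marks were found for 7 of the 32 members tested in both, and 1 was lower in both (Slc6a6); none had opposite calls (0 of 32). The 7 are Slc44a1, Slc7a5, Slc7a1, Slc1a5, Slc1a4, Slc38a7 and Slc30a4. Across the 32 members the log2 ratios of the marks had a Pearson r of 0.83 and a Spearman rho of 0.74, as a description over genes, which share libraries and neighbourhoods. At Slc7a6, Slc7a6os, Slc39a1 and Slc44a4 the regions used for H3K27ac and H3K9ac do not overlap. The 250 bases before the listed start are printed for the 5 of the 7 with a start listed by RefSeq (GRCm38.p6), to show what lies at the promoters that moved together; Slc7a5 and Slc1a5 have none listed. They read 5′ to 3′ on the gene's strand, with motif matches in capitals.
Slc44a1, chr4:53440163-53440412, plus strand: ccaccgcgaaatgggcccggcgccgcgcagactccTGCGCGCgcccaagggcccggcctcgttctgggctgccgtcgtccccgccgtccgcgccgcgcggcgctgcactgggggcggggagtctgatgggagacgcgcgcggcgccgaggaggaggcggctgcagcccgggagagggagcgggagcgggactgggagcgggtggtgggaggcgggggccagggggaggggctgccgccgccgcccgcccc
Slc7a1, chr5:148399905-148400154, minus strand: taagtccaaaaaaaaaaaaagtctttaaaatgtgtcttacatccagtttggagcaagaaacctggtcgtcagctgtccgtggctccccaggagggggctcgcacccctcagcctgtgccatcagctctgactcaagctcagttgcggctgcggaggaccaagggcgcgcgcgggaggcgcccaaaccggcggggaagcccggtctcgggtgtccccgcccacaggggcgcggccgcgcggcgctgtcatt
Slc1a4, chr11:20332714-20332963, minus strand: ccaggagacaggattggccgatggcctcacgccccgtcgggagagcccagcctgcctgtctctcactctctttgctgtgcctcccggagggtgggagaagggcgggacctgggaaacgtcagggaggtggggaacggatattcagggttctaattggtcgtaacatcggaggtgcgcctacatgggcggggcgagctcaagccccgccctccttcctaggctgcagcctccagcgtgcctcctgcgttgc
Slc38a7, chr8:95853492-95853741, minus strand: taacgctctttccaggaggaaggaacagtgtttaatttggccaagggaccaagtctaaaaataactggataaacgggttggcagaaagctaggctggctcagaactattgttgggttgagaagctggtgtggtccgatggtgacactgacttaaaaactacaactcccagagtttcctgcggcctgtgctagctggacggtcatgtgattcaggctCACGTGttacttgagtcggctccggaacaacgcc
Slc30a4, chr2:122702664-122702913, minus strand: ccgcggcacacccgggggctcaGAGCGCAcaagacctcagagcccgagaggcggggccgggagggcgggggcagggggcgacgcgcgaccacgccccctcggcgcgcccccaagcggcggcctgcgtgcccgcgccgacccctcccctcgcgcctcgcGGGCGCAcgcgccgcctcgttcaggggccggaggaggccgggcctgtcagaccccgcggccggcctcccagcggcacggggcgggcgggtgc

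Of 3 motifs searched on both strands, the amino acid response letters TGATGNAA (CARE) were in none of the 5, the zinc-response letters TGCACNC or TGCGCNC (MRE) were in Slc44a1 and at 2 places in Slc30a4, and the E-box CACGTG was in Slc38a7. None of these letter strings contains another. Over all 21263 listed promoters of this length, CARE letters were in 3.18%, MRE letters in 24.2% and the E-box in 6.63%. Over the 41 listed promoters of members with a tested region the counts were 0, 11 (26.8%) and 3 (7.32%). A match describes letters and is not a site. The GC content was 81.2% for Slc44a1, 82.8% for Slc30a4, 64.8% for Slc1a4, 62.4% for Slc7a1 and 49.6% for Slc38a7, where the median of all listed promoters was 55.6%.

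Among amino acid carriers, 6 of 16 tested were higher and 3 lower in Res in H3K27ac, and 9 of 16 were higher and 1 lower in H3K9ac. Of all genes tested, 14.6% were higher and 11.0% lower in H3K27ac, and 27.7% and 25.3% in H3K9ac. The 16 tested and the 9 higher in H3K9ac count Slc7a6os. Slc7a5 (chr8:121881146-121907686) encodes the light chain that imports leucine and other large neutral amino acids. Its H3K27ac level was 91.3, 137 and 106 scaled tags in Sen and 250, 258 and 267 in Res. The groups did not overlap, and the log2 ratio was 1.19 ± 0.14 (adjusted p = 0.0005). The called peaks there covered 6362 ± 3013 bases in Sen and 11542 ± 1221 in Res (SD, n = 3), and per called base the log2 ratio was 0.41, still past the threshold. Its H3K9ac level was 61.2, 80.6 and 78.7 in Sen and 141, 130 and 159 in Res, again without overlap (0.92 ± 0.10, adjusted p = 1.6e-05). Per called base the H3K9ac ratio was 0.46. With the median change of each chromosome removed, the ratios at Slc7a5 were 0.87 and 0.61 and stayed called.

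Slc7a1 (chr5:148327410-148399904) imports arginine and lysine. Its H3K27ac level was 66.6, 49.5 and 53.3 scaled tags in Sen and 91.4, 97.6 and 107 in Res, and every Res library was above every Sen one (0.80 ± 0.14, adjusted p = 0.00341). In H3K9ac, Sen had 103, 93.7 and 90.1 and Res had 160, 177 and 183 (0.87 ± 0.07, adjusted p = 2.1e-06). Per called base its H3K27ac ratio was 0.51, still called. Slc1a5 (chr7:16781334-16798274) exchanges glutamine for other neutral amino acids. It had 67.5, 67.5 and 58.4 in Sen and 106, 112 and 124 in Res for H3K27ac. For H3K9ac it had 94.2, 105 and 92.5 in Sen and 158, 170 and 184 in Res, and in neither mark did the groups overlap. The ratio was 0.80 in both marks (SE 0.12 and 0.07, adjusted p = 0.00155 and 4.7e-06), and it was 1.00 in both with chromosome medians removed. At a caller p of at most 1e-10 the H3K27ac ratio of Slc1a5 was 1.28, and per called base its H3K9ac ratio was 0.52.

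Slc1a4 (chr11:20302180-20332713), a carrier of alanine, serine and cysteine, showed its narrowest spread in H3K9ac, with 108, 109 and 110 scaled tags in Sen against 204, 195 and 197 in Res (0.85 ± 0.05, adjusted p = 3.6e-07). In H3K27ac it rose by 0.67 ± 0.12 (adjusted p = 0.00332). Chromosome 11 as a whole was higher in Res, with a median log2 ratio of 0.39 over its 1003 tested H3K27ac regions and 0.35 for H3K9ac. With that median removed the H3K27ac ratio of Slc1a4 was 0.28 (adjusted p = 0.13, not called) and its H3K9ac ratio was 0.50, still called; per called base the latter was 0.51. Slc38a7 (chr8:95835920-95853577), a glutamine carrier of the lysosome, had 20.5, 24.7 and 16.9 in Sen and 41.5, 43.1 and 69.3 in Res for H3K27ac. The groups did not overlap (1.28 ± 0.25, adjusted p = 0.00509), and per called base the ratio was 0.35. In H3K9ac the ratio at Slc38a7 was 0.69 ± 0.13 (adjusted p = 0.00109), or 0.43 per called base and 0.38 with the chromosome median removed.

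The other amino acid carriers gave calls in 1 mark or weaker ones. Slc43a2, which carries branched-chain amino acids and phenylalanine, was higher in H3K27ac (0.64 ± 0.17, adjusted p = 0.0221) but lay on chromosome 11. Its ratio was 0.31 per called base and 0.25, not called, with the chromosome median removed, and it lost the call without Sen replicate 3, Res replicate 1 or Res replicate 3, with ratios of 0.50 to 0.75 over the 6 omissions. The lysosomal proton-coupled carrier Slc36a1 was higher in H3K9ac, with 25.2, 29.1 and 29.1 in Sen and 44.7, 51.1 and 40.5 in Res (0.68 ± 0.13, adjusted p = 0.00095). It also lies on chromosome 11, and the ratio was 0.33 after removal of the median (adjusted p = 0.0627) and 0.35 per called base. Slc38a2 did not pass in either mark, at -0.13 and 0.14, although its H3K9ac ratio passed without the first Sen or the third Res library (0.11 to 0.17 over the omissions) and with chromosome medians removed (0.28).

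Lower values in Res were found for the taurine carrier Slc6a6 and the neutral amino acid carriers Slc6a18 and Slc6a19, which are best known from kidney and gut. Slc6a6 (chr6:91684048-91759063) had 118, 172 and 180 scaled tags of H3K27ac in Sen and 119, 76.3 and 89 in Res, so that the first libraries of both groups met (-0.75 ± 0.20, adjusted p = 0.02). In H3K9ac it had 139, 143 and 131 against 113, 100 and 104, without overlap (-0.39 ± 0.07, adjusted p = 0.00051). The H3K27ac call was lost at a caller p of at most 1e-10 (-0.74), per called base (-0.15) and without replicate 2 or 3 of either group, with ratios from -0.95 to -0.61. Chromosome 6 was lower as a whole (-0.36 and -0.31), and with its median removed neither mark was called at Slc6a6 (-0.39 and -0.09). The 1 H3K27ac region shared by Slc6a18 and Slc6a19 had 61, 77.4 and 71.6 in Sen and 28.6, 36 and 44.2 in Res (-0.98 ± 0.18, adjusted p = 0.00408), and it counts for both genes; per called base it was -0.35.

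**Figure D2:**
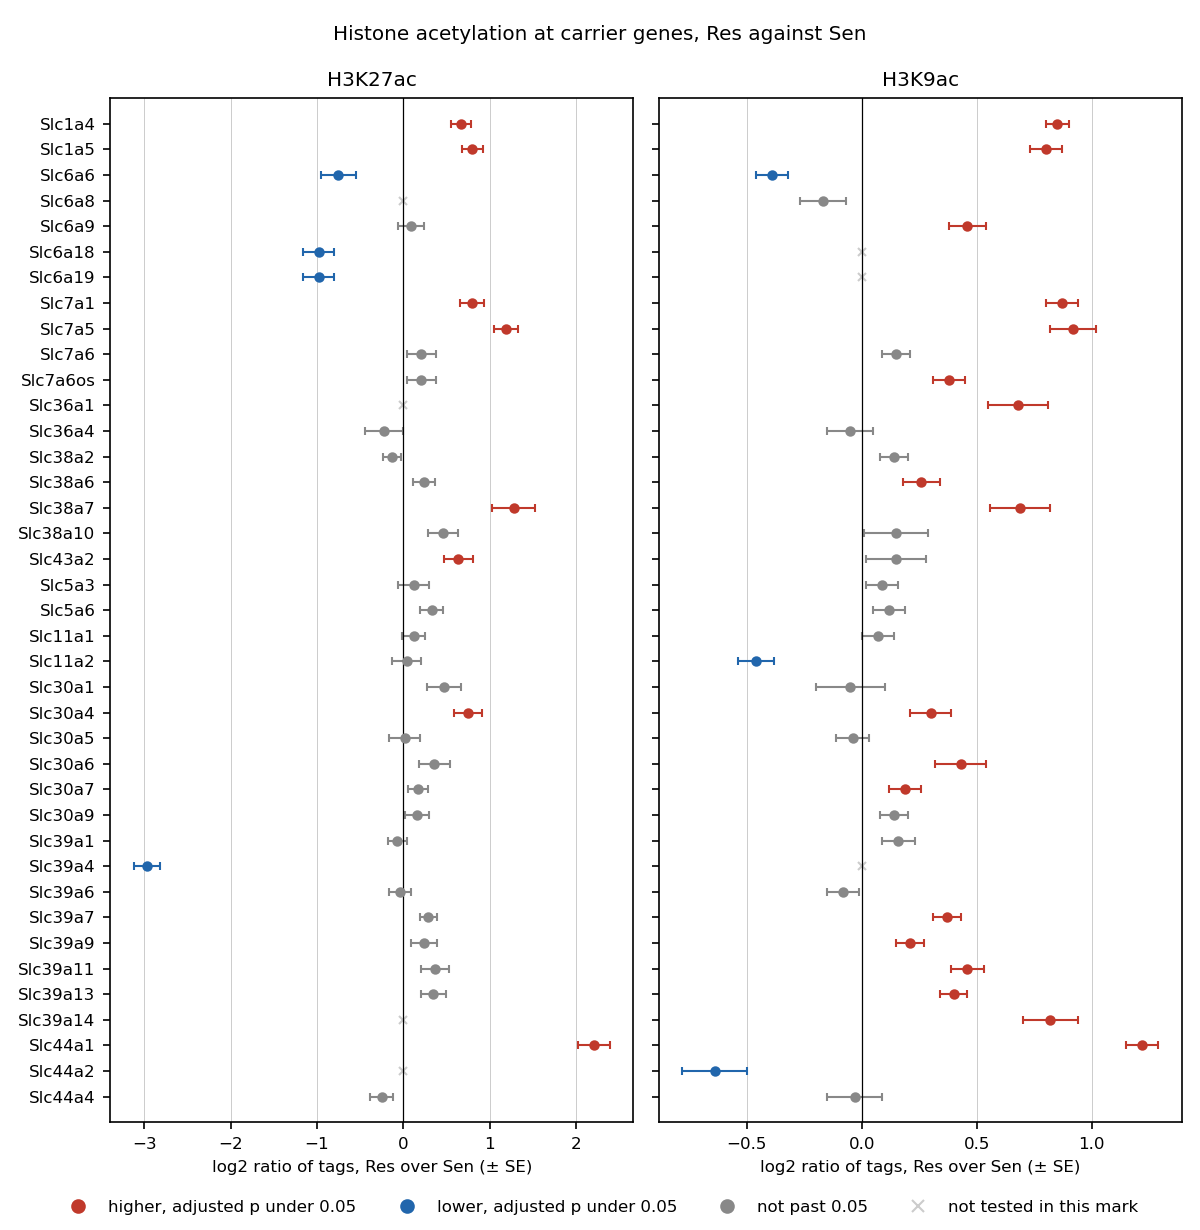
Log2 ratio of tags, Res over Sen, with its standard error on the horizontal axis, for each member tested in either mark on the vertical axis; red and blue points passed an adjusted p of 0.05 and crosses were not tested in that mark. The axes differ between the panels, and Slc39a4 at -2.97 and Slc44a1 at 2.21 mark the ends of the H3K27ac range.

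Zinc carriers were called more often in H3K9ac than in H3K27ac. In H3K9ac 8 of 13 tested were higher and 0 lower, and in H3K27ac 1 of 13 was higher and 1 lower. The H3K9ac counts leave out carriers that lost their peaks in Res, since a test needed a peak in all 6 libraries. These were Slc39a4, with a peak in 3 Sen libraries and 1 Res library, and Slc39a3, with 3 and 0. All genes tested were also called more often in H3K9ac, with 27.7% higher and 25.3% lower against 14.6% and 11.0%, and the difference between the marks was not tested for the zinc carriers. The H3K9ac changes were small except at Slc39a14 (chr14:70303467-70351452), which imports zinc, iron and manganese. There the Sen libraries had 36, 35.6 and 39.5 scaled tags and the Res libraries 77.5, 61.3 and 59.9, without overlap (0.82 ± 0.12, adjusted p = 0.00014; 0.26 per called base, still called). Its H3K27ac level was 22.5 and 19.8 in Sen replicates 2 and 3, with no peak in the shallow replicate 1, and 57.6, 75.4 and 66.7 in Res, and it was not tested for that mark. The other higher H3K9ac regions lay between 0.19 and 0.46: Slc39a7 (with Rxrb) at 0.37, Slc39a9 (with Erh) at 0.21, Slc39a11 (with Cog1) at 0.46, Slc39a13 at 0.40, Slc30a6 at 0.43, Slc30a7 (with Extl2) at 0.19 and Slc30a4 at 0.30. Of these 7, Slc30a6, Slc30a7, Slc39a7, Slc39a9 and Slc39a11 lost the call with chromosome medians removed. Slc30a7, Slc39a7, Slc39a9 and Slc39a13 lost it per called base, and Slc30a7 lost it with DESeq2.

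Slc30a4 (chr2:122681233-122702663) loads zinc into vesicles and milk. Its H3K27ac level was 63.3, 70 and 58.4 in Sen and 115, 85.6 and 125 in Res, without overlap (0.75 ± 0.16, adjusted p = 0.00838). The called peaks grew from 3576 ± 1239 to 6440 ± 1591 bases (SD, n = 3), and per called base the ratio was 0.02 and not called. Its H3K9ac call (0.30 ± 0.09, adjusted p = 0.0149) was lost without the third Res library (0.20), and the ratio was 0.16 per called base and 0.47 with the chromosome median removed. Slc30a1, which exports zinc over the cell surface, and Slc39a1 did not pass, at 0.47 and -0.07 for H3K27ac and -0.05 and 0.16 for H3K9ac; the H3K9ac region used for Slc39a1 is shared with Crtc2 and is not at a listed start, and it passed without the third Res library (0.23).

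Slc39a4, which takes up dietary zinc in the gut, was the member with the largest drop. Its region (chr15:76612971-76622442) overlaps most of the gene at chr15:76612383-76618506 and reaches Vps28, a gene of endosomal sorting, so the value belongs to both. The H3K27ac level was 279, 295 and 301 scaled tags in Sen, 45.9, 31.1 and 35.2 in Res, 189, 181 and 210 in Res_Ctrl and 162, 190 and 203 in Res_shFabp7. Res lay far below the other 3 groups and did not overlap with them. The called peaks covered 7927 ± 1835 bases in Sen and 2200 ± 599 in Res (SD, n = 3), and per called base the log2 ratio of -2.97 became -1.01, still called. The H3K9ac level was 278, 236 and 250 in Sen and 41.1 in the first Res library, and Res replicates 2 and 3 had no peak, so that mark was not tested.

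**Figure D3:**
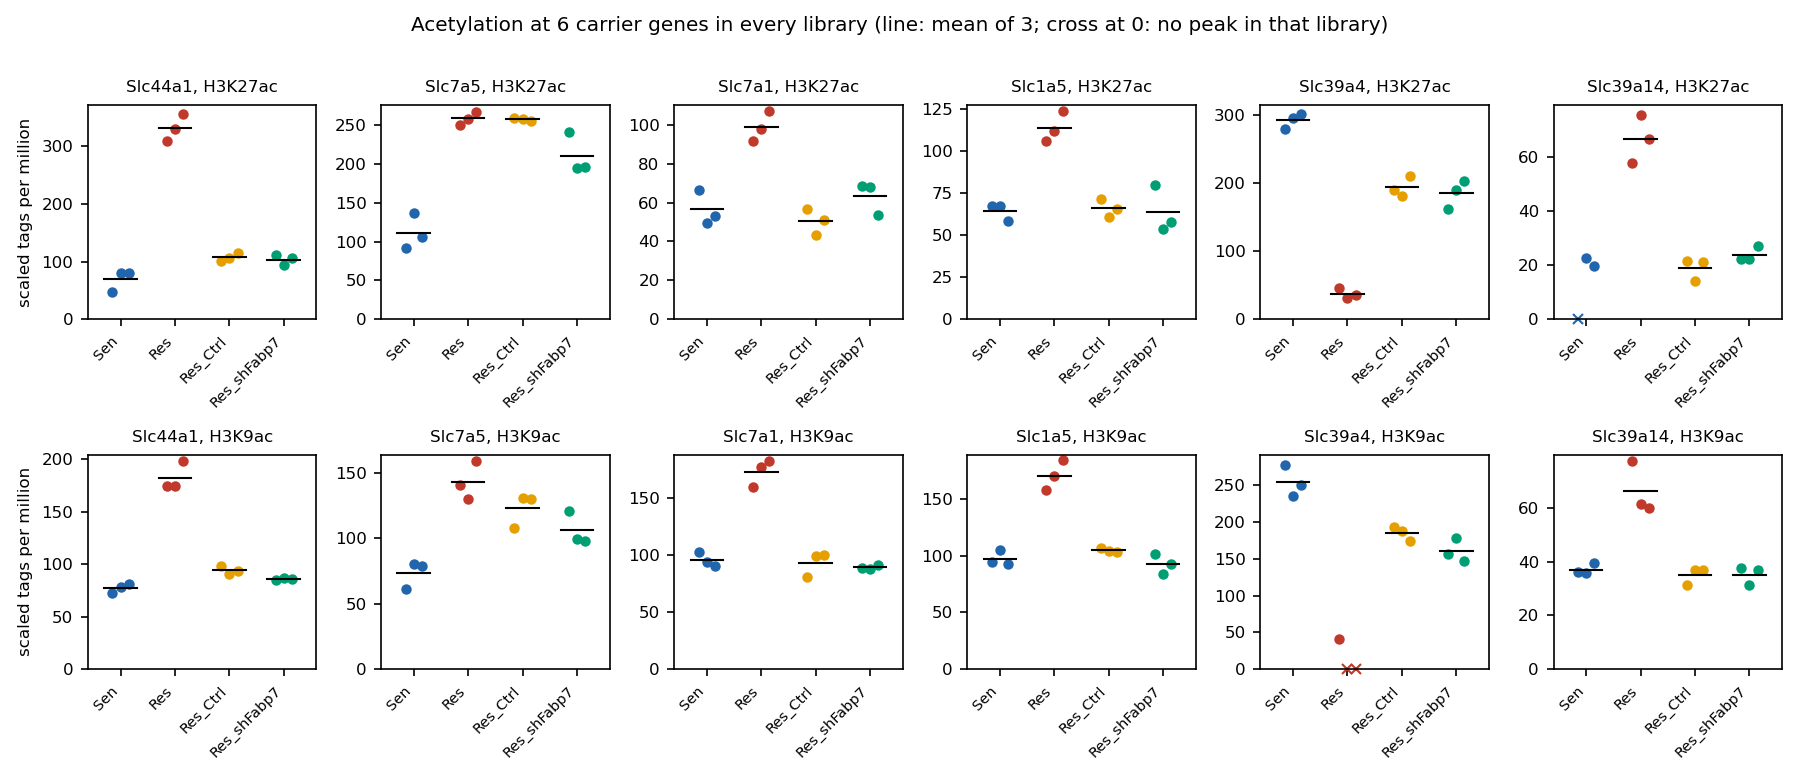
Scaled tags on the vertical axis (from 0, with a separate scale per panel) for 6 members in each library of the 4 groups on the horizontal axis, H3K27ac above and H3K9ac below; lines are means of 3 libraries, and crosses at 0 stand for libraries without a peak. For H3K27ac, Slc44a1 lies at 308 to 356 in Res and at 115 or less in the other groups, Slc7a5 at 137 or less in Sen and 194 or more elsewhere, and Slc39a4 at 45.9 or less in Res and 162 or more elsewhere.

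The choline carrier Slc44a1 (chr4:53440387-53622478), which feeds phosphatidylcholine synthesis, had the largest rise of the set in both marks. Its H3K27ac level was 47.5, 80.7 and 79.9 scaled tags in Sen, 308, 329 and 356 in Res, 101, 106 and 115 in Res_Ctrl and 111, 93.5 and 106 in Res_shFabp7. The called peaks covered 3819 ± 1620 bases in Sen and 12944 ± 813 in Res (SD, n = 3), so the log2 ratio of 2.21 counts a wider region as well as a higher one; per called base it was 0.55 and stayed called. In H3K9ac, whose peaks covered 2889 ± 261 and 3332 ± 469 bases, Sen had 72, 77.9 and 81.1 and Res 174, 174 and 198 (1.22 ± 0.07, adjusted p = 1.9e-07; 0.75 per called base). Both ratios were the same within 0.01 with chromosome medians removed, at 2.22 and 1.22. Slc44a2, a choline carrier of the cell surface and mitochondria, went the other way in H3K9ac, with 36.8, 43.5 and 46.4 in Sen and 23.8, 28.3 and 30.4 in Res (-0.64 ± 0.14, adjusted p = 0.00218; -0.28 per called base).

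Of the iron family, Slc11a2 (chr15:100387898-100424209), the divalent metal carrier of the gut and of endosomes, was lower in H3K9ac, with 96.6, 116 and 114 in Sen and 87.9, 79.1 and 76.1 in Res. The groups did not overlap (-0.46 ± 0.08, adjusted p = 0.00079), but per called base the ratio was -0.07 and not called, and in H3K27ac it was 0.04 ± 0.17. Slc11a1 did not pass in either mark (0.12 and 0.07), although its H3K27ac ratio passed per called base (0.32). Of Slc5a, the inositol carrier Slc5a3 and the multivitamin carrier Slc5a6 were tested, in regions shared with Mrps6 and Atraid, and neither passed.

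The second comparison asks what the Fabp7 knockdown changed in resistant cells. No member passed in either mark: 0 of 40 tested in H3K27ac (0.809% of all genes higher, 1.08% lower) and 0 of 37 in H3K9ac (2.14% and 3.61%). At an unadjusted p under 0.05 edgeR's quasi-likelihood test gave 6 members in H3K27ac (Slc30a4, Slc30a5, Slc38a2, Slc5a6, Slc7a1 and Slc7a5) and 5 in H3K9ac (Slc1a5, Slc39a4, Slc5a6, Slc6a19 and Slc7a5), named after their values were seen. DESeq2 called 0 in each mark, with 5 and 4 at an unadjusted p under 0.05. Of all genes it called 1.48% higher and 1.63% lower in H3K27ac, and 2.21% and 3.95% in H3K9ac. The log2 ratios ran from -0.29 (Slc43a2) to 0.40 (Slc30a5) for H3K27ac, with a median SE of 0.14, and from -0.53 (Slc6a19) to 0.22 (Slc44a4, shared with Neu1) for H3K9ac, with a median SE of 0.08. Across the 36 members tested in both, the marks' ratios had a Pearson r of 0.30 and a rho of 0.26, again as a description.

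Slc44a1 had log2 ratios of -0.03 and -0.13 in H3K27ac and H3K9ac, Slc39a4 with Vps28 of -0.05 and -0.19, Slc1a5 of -0.04 and -0.18, and Slc7a1 of 0.34 and -0.06. The H3K9ac ratio at Slc39a4 passed at a caller p of at most 1e-10 (-0.23, adjusted p = 0.0423 by edgeR's quasi-likelihood test) and with peaks merged over the 6 lists compared (-0.23, adjusted p = 0.0408). Slc7a5 had 259, 258 and 255 scaled tags of H3K27ac in Res_Ctrl and 241, 194 and 196 in Res_shFabp7. The groups did not overlap, but the ratio of -0.28 ± 0.10 did not pass (adjusted p = 0.156) except without the first Res_shFabp7 library (-0.40). Its chromosome 8 had a median ratio of -0.20 in H3K27ac and -0.16 in H3K9ac. With chromosome medians removed Slc7a5 was at -0.08 and -0.07, not called in either mark. Slc30a4 had 121, 101 and 102 in Res_Ctrl and 137, 157 and 125 in Res_shFabp7, also without overlap (0.38 ± 0.12, adjusted p = 0.0939). With the replicate number as a block the ratio of Slc30a4 was 0.38 again and passed (adjusted p = 0.0434), as it did without the first Res_Ctrl library (0.47), and per called base it was 0.04. Slc6a19 in H3K9ac came nearest to the threshold there (-0.53 ± 0.18, adjusted p = 0.0834), and it passed without the third Res_Ctrl library (-0.69) and per called base (-0.38). On that last scale 4 of 37 members were lower in H3K9ac, Slc30a1, Slc30a7, Slc6a19 and Slc7a5. Of all genes, 4.31% were lower and 4.09% higher on it.

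Res_Ctrl was set against Sen and against Res as well, since it is labelled resistant like Res but with a control genotype. These comparisons share their Res_Ctrl, Sen or Res libraries with the others and are given as values only. Against Sen, 5 of 35 members were higher (6.88% of all genes) and 3 lower (5.98%) in H3K27ac, and 6 of 37 higher (15.1%) and 6 lower (15.7%) in H3K9ac. Slc7a5 was the highest, at 1.22 ± 0.14 and 0.72 ± 0.10 for H3K27ac and H3K9ac (adjusted p = 0.00094 and 0.00024). Slc30a4 followed with 0.78 ± 0.13 and 0.53 ± 0.08, and the region shared by Slc7a6, an exchanger of arginine and leucine, and Slc7a6os with 0.72 ± 0.16 in H3K27ac, while the H3K9ac region of Slc7a6 had 0.51 ± 0.06. Slc44a1 was at 0.63 ± 0.18 and 0.27 ± 0.07, with an H3K27ac call (adjusted p = 0.0417) that was lost without any library but the first Sen one (0.43 to 0.74). Slc7a6 in H3K27ac lost its call without Res_Ctrl replicate 2 or 3 (0.54 to 0.84). Slc38a2 was lower in both marks (-0.63 ± 0.11 and -0.35 ± 0.06), as were Slc39a4 with Vps28 (-0.57 ± 0.09 and -0.46 ± 0.07) and Slc6a6 (-0.68 ± 0.17 and -0.35 ± 0.07).

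Whole chromosomes differed in this comparison. The median ratio of chromosome 8, with Slc7a5 and Slc7a6, was 0.62 and 0.54 for the marks, and that of chromosome 15, with Slc38a2, Slc39a4 and Slc11a2, was -0.50 and -0.36. With chromosome medians removed only Slc7a5 (0.60) and Slc30a4 (0.79) stayed called in H3K27ac and only Slc1a4 (0.31) and Slc30a4 (0.55) in H3K9ac, and no member was lower in either mark. Of all genes, 2.41% were then higher and 1.77% lower in H3K27ac, and 8.15% and 6.6% in H3K9ac. What sets the chromosome medians was not tested. The H3K9ac ratio of Slc7a5 was then 0.18, not called. Per called base, 3 members were higher and 1 lower in H3K27ac, and 2 and 2 in H3K9ac. Of all genes on that scale, 6.58% were higher and 6.6% lower in H3K27ac, and 12.5% and 15.9% in H3K9ac. Slc7a5 was at 0.41 in both marks, still called, and Slc30a4 at 0.19 and 0.03, not called. The H3K27ac call of Slc6a6 was lost without replicate 2 or 3 of either group (-0.84 to -0.57), and so was the H3K9ac call of the zinc exporter Slc30a1 (-0.36 ± 0.12, adjusted p = 0.0406; -0.42 to -0.28).

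Against Res, more members were called lower than higher in Res_Ctrl. In H3K27ac 6 of 39 were higher (11.1% of all genes) and 8 lower (18.3%), and in H3K9ac 2 of 35 were higher (18.0%) and 15 lower (42.9% of members, 23.0% of all genes). Slc39a14 had 21.4, 14 and 21.1 scaled tags of H3K27ac in Res_Ctrl, below the 57.6 to 75.4 of Res, with ratios of -1.79 ± 0.20 and -0.91 ± 0.14 for the marks (adjusted p = 7.8e-05 and 0.00029); per called base the H3K9ac ratio was -0.17 and not called. Slc44a1 was at -1.61 ± 0.09 and -0.95 ± 0.08, Slc7a1 at -0.94 ± 0.13 and -0.89 ± 0.09, and Slc1a5 at -0.76 ± 0.11 and -0.71 ± 0.07. Per called base the H3K27ac ratios were -0.41 for Slc39a14, -0.35 for Slc44a1, -0.50 for Slc7a1 and -0.45 for Slc1a5, all still called, and the H3K9ac ratio of Slc44a1 was -0.61. The H3K27ac levels of Slc7a5 in Res_Ctrl (255 to 259) lay within the range of Res (250 to 267). Its H3K9ac ratio of -0.22 did not pass, except without Res replicate 2 (-0.29). With chromosome medians removed Slc7a5 was called lower in both marks (-0.23 and -0.44). The zinc carriers had 1 of 14 higher and 1 lower in H3K27ac, and 0 of 13 higher and 6 lower in H3K9ac. Of all genes tested for H3K9ac, 18.0% were higher and 23.0% lower. Slc39a4, with an H3K9ac peak in 3 Res_Ctrl libraries and 1 Res library, was not tested there.

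Higher in Res_Ctrl than in Res were Slc39a4 with Vps28 (2.38 ± 0.15 in H3K27ac, adjusted p = 4.1e-06), the iodide carrier Slc5a5 (1.05 ± 0.11) and the region of Slc6a18 and Slc6a19 (0.84 ± 0.20). Per called base these were 0.78, 0.38 and 0.29. With regions within 2500 bases a different region was used for Slc5a5, at 0.34. Slc5a5 had 56.4, 54.3 and 54.3 scaled tags in Res and 107, 108 and 122 in Res_Ctrl, without overlap. Its region (chr8:70875815-70881894) lies outside the gene (chr8:70882885-70892785), and no H3K9ac region was found at the gene's ends. Slc44a2 was higher in H3K9ac (0.73 ± 0.14, or 0.30 per called base). Slc7a6 was higher in both marks, in separate regions (0.49 ± 0.11 and 0.36 ± 0.06), although its calls were lost with chromosome medians removed (0.24 and 0.14). The metal carrier Slc11a2 was lower in H3K27ac (-0.60 ± 0.14, adjusted p = 0.00821), but per called base its ratio was 0.10. Slc1a4, Slc38a2 and Slc11a1 were also called lower in both marks. With chromosome medians removed all 3 lost the H3K27ac call, and Slc11a1 lost the H3K9ac call as well (-0.13).

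**Figure D4:**
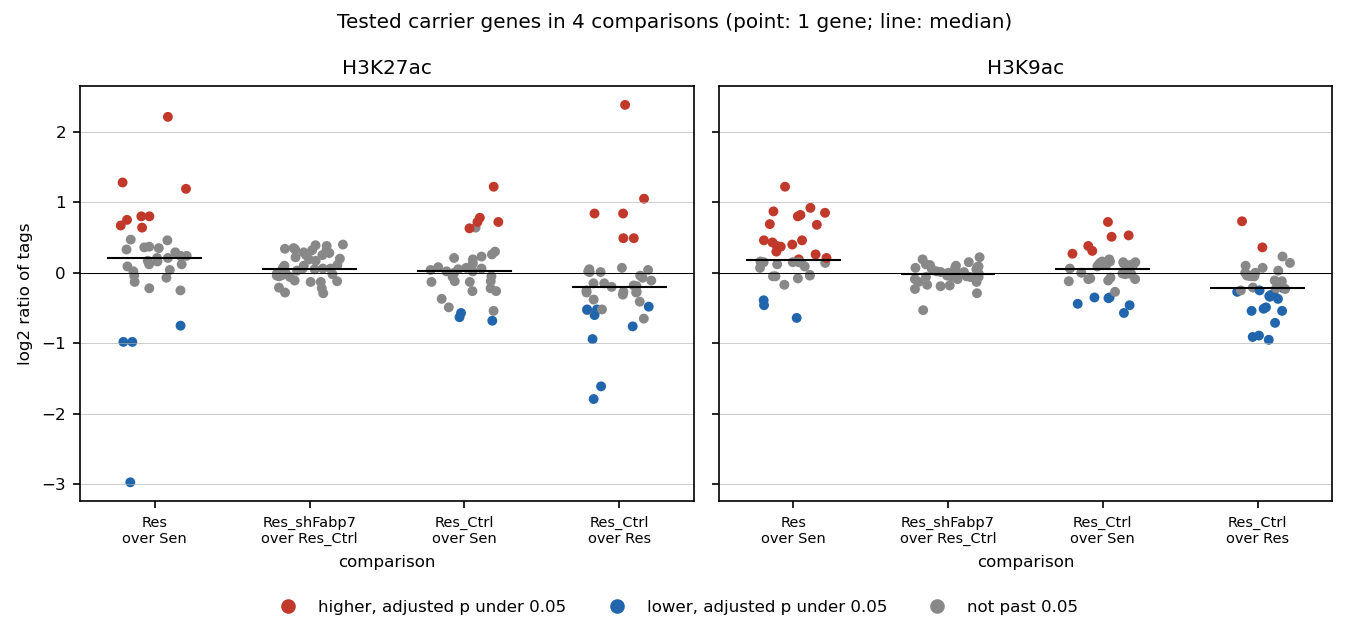
Log2 ratio of tags on the vertical axis for every tested member (1 point each) in the 4 comparisons on the horizontal axis, with lines at the medians; red and blue points passed an adjusted p of 0.05. The points of Res_shFabp7 over Res_Ctrl lie between -0.53 and 0.40 in grey, while the other 3 comparisons reach from -2.97 to 2.38.

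Genes that work with the carriers were followed in 5 lists of 52 genes: heavy chains, glutamine, glutamate and serine metabolism, amino acid sensing, metal handling, and choline use. Between Res and Sen, 7 of 39 tested were higher and 4 lower in H3K27ac, and 17 of 43 higher and 7 lower in H3K9ac. Of all genes tested for H3K27ac 14.6% were higher and 11.0% lower, near the partner genes' counts, and for H3K9ac 27.7% were higher and 25.3% lower. The glutamine, glutamate and serine list had 5 of 12 higher and 1 lower in H3K27ac and 9 of 14 higher and 2 lower in H3K9ac. The alanine aminotransferase Gpt2 was at 1.65 ± 0.32 and 1.41 ± 0.11 for the marks, the asparagine synthetase Asns at 1.08 ± 0.10 in H3K9ac and the serine hydroxymethyltransferase Shmt2 at 0.87 ± 0.07 in H3K9ac. Rraga, a GTPase that relays amino acid levels to mTOR and shares its region with Haus6, was at 1.17 ± 0.11 and 0.92 ± 0.05. The proline synthesis enzyme Aldh18a1 was at 0.81 ± 0.16 in H3K27ac, and the transferrin receptor Tfrc was lower there (-0.80 ± 0.20). Slc3a2, the heavy chain that pairs with Slc7a5, had smaller values: its ratio was 0.00 ± 0.12 in H3K27ac and 0.14 ± 0.05 in H3K9ac (adjusted p = 0.0477).

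In the knockdown, 0 of 41 partner genes were higher and 1 lower in H3K27ac, and 1 of 44 was higher and 2 lower in H3K9ac. These counts lie near the shares of all genes tested, 0.809% and 1.08% in H3K27ac and 2.14% and 3.61% in H3K9ac. The metallothionein gene Mt2, whose product buffers zinc, fell by 1.20 ± 0.19 (SE) on the log2 scale in H3K27ac (adjusted p = 0.00911) and by 0.85 ± 0.14 in H3K9ac, and its neighbour Mt1 fell by 0.47 ± 0.09 in H3K9ac. The aspartate aminotransferase Got1 was higher in H3K9ac (0.40 ± 0.11). Slc3a2 was at -0.04 and -0.03.

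Res_Ctrl against Res had 6 of 13 genes of the glutamine, glutamate and serine list lower and 3 higher in H3K27ac, where 18.3% of all genes tested were lower and 11.1% higher. In H3K9ac it had 9 of 14 lower and 1 higher, where 23.0% and 18.0% of all genes were. Asns was at -1.38 ± 0.20 and -1.45 ± 0.13 for the marks, Shmt2 at -1.09 and -1.11, Gpt2 at -1.09 and -0.99, and the proline synthesis enzyme Pycr1 at -0.99 in H3K9ac; Rraga with Haus6 was at -1.03 in H3K27ac. Against Sen, the called values of Res_Ctrl were smaller, led by the mitochondrial aspartate aminotransferase Got2 (0.77), Mt2 (0.65), the choline kinase Chka (0.51) and the serine synthesis enzyme Phgdh (0.50) in H3K27ac, and by Pycr1 (-0.46), Gpt2 (0.42), Mt1 (0.39) and Chka (0.37) in H3K9ac. Slc3a2 did not pass in either of these comparisons (0.09 and 0.13 against Sen, 0.06 and -0.01 against Res). Chromosome medians were not removed from the partner genes' values in any comparison. In Res_Ctrl against Sen the median of chromosome 8 alone was 0.62 in H3K27ac and 0.54 in H3K9ac. In Res_shFabp7 against Res_Ctrl that median was -0.20 and -0.16. Whether the partner genes differ from the rest of their chromosomes was not tested.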

How the data were processed

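The submitters' processing notes name Bowtie 1.1.2, MACS 1.4.2 and mm10 without saying what each was used for; whether the 4 inputs served as controls is not given in the sources used here, and inputs were not analysed here. Each deposited list gives, per the file headers, a tag count per peak, a score for the caller's p, read as the MACS form of its log10 (the lowest is 50.0, a p of 1e-05) and a fold enrichment ratio; the count was tested, the score served only for a stricter threshold and the fold was not used. In the deposited lists peaks were called per library, so tag counts include only called bases.

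Peaks of the 12 lists of a mark were merged (overlap of at least 1 base), and members were given regions within 1 kb of their ends; with several, the one with the highest level was used. Tests used edgeR 4.0.16 in R 4.3.3, TMM scaling and 3 libraries per group; DESeq2 1.42.0 was an alternative. The p-values measure the spread between the labelled replicates. The fit was also run on counts simulated with the dispersions of these data, and the outcome is not reported here. The members and lists were chosen with earlier results of these data known. Named were up to 8 members per direction, mark and main comparison by size of change (3 in the others), members gained or lost, 12 carriers whatever their values, up to 4 partner genes per comparison and mark, and Slc3a2. Replicate numbers were checked for pairing: deviations of same-numbered libraries correlated above 0.1 in all 3 pairs only for Res_shFabp7 and Res_Ctrl in H3K27ac (0.35, 0.12 and 0.23). Intervals and standard errors cover these libraries only.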

Additional observations from a re-analysis of the deposited data

How the results depend on the processing

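Counts of called members kept within 1.5 times of their value in most settings. From Res against Sen, the 4 lower members of H3K27ac became 2 at a caller p of 1e-10, and the 18 higher of H3K9ac became 11 with chromosome medians removed, 10 of them among the 18. The share of members higher there went from 50% to 30.6%, and that of all genes from 27.7% to 15.1%. In Res_shFabp7 against Res_Ctrl, 0 higher in H3K27ac became 1 (Slc30a4) with the replicate block, whose pairing is described under the processing, and 0 lower in H3K9ac became 1 at a caller p of 1e-10, 1 with peaks merged over 6 lists and 4 per called base. In Res_Ctrl against Sen, the 5 higher of H3K27ac became 3 per called base and 2 with chromosome medians removed, and the 3 lower became 5 in 1 fit of 12 libraries, 1 per called base and 0 with chromosome medians removed; the 6 higher and the 6 lower of H3K9ac became 2 and 2 per called base and 2 and 0 with chromosome medians removed. In Res_Ctrl against Res, the 2 higher of H3K9ac became 1 at a caller p of 1e-10, 4 per called base and 1 with chromosome medians removed. Of all genes, 12.8% were higher per called base and 11.2% with chromosome medians removed. Among values called in the reported setting, sign changes were 0.10 for Slc11a2 (Res_Ctrl against Res, H3K27ac) per called base, and 0.01 for Slc38a2 and -0.02 for Slc7a6 (Res_Ctrl against Sen, H3K9ac) with chromosome medians removed.

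Leaving out 1 library at a time gave the following ranges for higher and lower members. Res against Sen had 7 to 10 and 3 to 5 in H3K27ac and 16 to 19 and 3 to 3 in H3K9ac. Res_shFabp7 against Res_Ctrl had 0 to 1 and 0 to 1 in H3K27ac (1 without Res_Ctrl 1 and without Res_shFabp7 1) and 0 to 0 and 0 to 1 in H3K9ac (1 without Res_Ctrl 3). Res_Ctrl against Sen had 2 to 6 and 2 to 4 in H3K27ac (2 higher without Res_Ctrl 2 or 3) and 6 to 7 and 5 to 6 in H3K9ac. Res_Ctrl against Res had 6 to 6 and 8 to 9 in H3K27ac and 2 to 3 and 12 to 15 in H3K9ac. DESeq2 kept 16 of the 18 higher in H3K9ac between Res and Sen, without Slc30a7 and Slc38a6, and 12 of the 15 lower between Res_Ctrl and Res, without Slc30a6, Slc39a9 and Slc5a6. Of 152 values of members named by the rule, which leaves out these 5, the block made 1 lose and 4 gain a call, and DESeq2 made 1 gain one. Median-of-ratios scaling and an overlap of 200 bases changed none. Removing chromosome medians changed more: 25 lost and 3 gained a call, and 2 called values changed sign. Per called base 16 lost and 6 gained a call, and 1 called value changed sign. With the starts listed by RefSeq added to the gene ends, a choice made after seeing the data, members without a region numbered 57 and 58 in place of 61 and 62. Where a library lacked a peak its tags are unknown, so weak regions could be described only by presence.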
